A study of Mus musculus with 6 samples.

Results

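The protein kinase C genes Prkca, Prkcb, Prkcd, Prkce, Prkch, Prkcq and Prkcz were followed in bulk RNA from mouse nucleus accumbens, the ventral part of the striatum. They were taken by symbol, as 7 of the 54658 genes listed in the count tables, and all 7 passed the filter on low counts that left 17563 genes for testing. The tissue came from male C57BL6 mice aged 8 weeks. In the Gas5 group, with 3 libraries lettered A, B and C, a herpes simplex virus vector (p1005+) delivered Gas5, a long noncoding RNA, along with EGFP. In the GFP group, also with 3 libraries lettered A, B and C, the same vector carried EGFP alone, so both groups had received virus, an injection and EGFP. The series asks about Gas5 in the action of cocaine, and no cocaine treatment is given for these samples. The labels do not say how many cells took up the vector or whether animals were pooled into a sample. The p-values therefore measure only the spread between these samples, which may be technical.

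Protein kinase C enzymes phosphorylate serine and threonine residues and carry signals from receptors that activate phospholipase C. Phospholipase C splits a membrane lipid into diacylglycerol, which binds the C1 domains of these kinases, and inositol trisphosphate, which releases calcium. The conventional isoforms, encoded here by Prkca and Prkcb, need calcium and diacylglycerol, the calcium-independent isoforms, encoded by Prkcd, Prkce, Prkch and Prkcq, need diacylglycerol alone, and the atypical isoform encoded by Prkcz answers to neither and works through protein partners. In neurons the family is known for its part in transmitter release, receptor trafficking and synaptic plasticity, and a shortened form of the Prkcz product without the regulatory portion, called PKMzeta, is known from brain and is transcribed from a start inside the gene.

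Total counts ranged from 32359052 to 56081575 per library. Gas5, the gene the vector delivers, stood at 23.2 CPM ± 0.545 with the Gas5 vector and 17.8 CPM ± 1.15 with EGFP alone (SD, n = 3 each), where CPM is the count relative to the library total, scaled between libraries by TMM. It was called higher, at 0.38 on the log2 scale (adjusted p 0.0163, edgeR), and the call was lost without GFP B (0.33, adjusted p 0.0727) and without GFP C (0.40, adjusted p 0.0677). Other genes overlap 26.6% of the Gas5 span, and reads there are not counted. The labelled tissue carried the markers of medium spiny neurons, the principal cells of the accumbens, among them Drd1 and Drd2 at 135 and 238 CPM in the GFP group. Markers of cortical excitatory neurons differed between the groups. Of 11 tested, 8 were lower and 0 higher in the Gas5 libraries, where 3.96% and 1.48% of all tested genes were called so. The same shares stand beside the counts of the other lists below. The summed level of the cortical markers was between 189 and 247 CPM against between 413 and 554 CPM in the GFP libraries. Cux2 was the largest part of this sum in each Gas5 library, at 81.8 to 108 CPM, with a log2 fold change of -0.01. The median log2 fold change of the 11 tested markers was -2.62. Of the 12 markers on this list Neurod1 was at 0 throughout, with its whole span inside the overlap with other genes, where reads are not counted. The mean log2 CPM of these 11 markers, called the cortical marker score below, was 1.997, 2.67 and 2.86 in the Gas5 libraries (A to C) against 3.85, 4.34 and 4.39 in the GFP libraries (A to C). The tables count reads over the whole span of a gene, introns included, and leave out reads where annotated genes overlap.

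The start regions of the genes are shown because the counts pool every start of a gene, and because Prkca is 1 of the 2 members called. RefSeq start windows on build GRCm38.p6 matched 5 of the 7 genes with 8 start sites, and Prkce and Prkch were not matched. Printed here are the 250 bases before and the first 20 bases after 4 of these starts. The Prkca window is chr11:108343869-108344138 on the minus strand, and the Prkcb window, from the other conventional isoform, is chr7:122288875-122289144 on the plus strand. For Prkcz the outermost start lies at chr4:155361409-155361678 and the first of 2 internal starts at chr4:155345770-155346039, both on the minus strand. Which internal start gives the short form was not established here. Capitals mark 2 motifs searched on both strands, the cyclic AMP response element TGACGTCA and the GC box GGGCGG with its reverse complement CCGCCC, and the TATA letters TATAAA were searched too.
Prkca: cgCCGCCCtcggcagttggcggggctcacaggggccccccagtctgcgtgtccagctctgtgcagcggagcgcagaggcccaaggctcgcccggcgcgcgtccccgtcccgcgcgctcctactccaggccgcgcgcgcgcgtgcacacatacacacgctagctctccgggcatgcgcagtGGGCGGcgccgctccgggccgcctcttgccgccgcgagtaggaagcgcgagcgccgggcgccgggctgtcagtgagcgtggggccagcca
Prkcb: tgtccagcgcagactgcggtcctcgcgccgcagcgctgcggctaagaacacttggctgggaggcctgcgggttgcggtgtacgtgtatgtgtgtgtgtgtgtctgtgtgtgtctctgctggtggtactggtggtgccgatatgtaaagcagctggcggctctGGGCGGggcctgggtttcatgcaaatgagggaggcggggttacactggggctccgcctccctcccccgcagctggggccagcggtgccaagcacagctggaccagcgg
Prkcz outermost start: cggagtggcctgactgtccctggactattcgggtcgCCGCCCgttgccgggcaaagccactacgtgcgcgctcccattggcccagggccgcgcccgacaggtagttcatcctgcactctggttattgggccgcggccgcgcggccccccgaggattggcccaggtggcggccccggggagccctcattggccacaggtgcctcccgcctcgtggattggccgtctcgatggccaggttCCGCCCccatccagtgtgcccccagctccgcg
Prkcz internal start: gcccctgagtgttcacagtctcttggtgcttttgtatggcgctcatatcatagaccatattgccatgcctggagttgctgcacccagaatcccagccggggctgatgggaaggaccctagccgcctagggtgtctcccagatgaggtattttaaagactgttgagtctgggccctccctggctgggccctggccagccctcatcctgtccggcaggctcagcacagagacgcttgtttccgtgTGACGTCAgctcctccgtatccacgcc
The GC box letters occurred in the Prkca window 2 times, in the Prkcb window 1 time and in the outermost Prkcz window 2 times, and 34.1% of all 32851 start windows of this length held them. TGACGTCA occurred in 1 of these 4 windows, that of the internal Prkcz start, beginning 7 bases before the annotated start, and 1.73% of all windows held it. The TATA letters were in none of the 4 windows and in 12.9% of all. Guanine and cytosine made up 76.3% of the Prkca window, 65.2% of the Prkcb window, 71.1% of the outermost Prkcz window and 58.5% of the internal one. The other internal Prkcz window, chr4:155344730-155344999 on the minus strand, held the GC box letters 2 times and TGACGTCA 0 times. These matches are descriptions of letters. The counts per gene do not separate reads of the Prkcz starts, so the level given below for Prkcz sums over full-length and short forms.

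All 7 genes are protein-coding and 6 of them span more than 100 kb. The longest is Prkce on chromosome 17 (86167785 to 86657919, plus strand), with 490.1 kb, of which 1.48% is annotated exon. Prkca lies on chromosome 11 (107933387 to 108343928, minus strand), Prkcb on chromosome 7 (122288751 to 122634402, plus strand), Prkch on chromosome 12 (73584796 to 73778185, plus strand), Prkcq on chromosome 2 (11172108 to 11301222, plus strand) and Prkcz on chromosome 4 (155260129 to 155361361, minus strand). Prkcd is the shortest, at 30.9 kb on chromosome 14 (30595354 to 30626210, minus strand), with 17.97% exon. The share of a span lost to overlap with other annotated genes was at most 4.78%, in Prkcq, and 0% in Prkcd and Prkch. Most of what is counted for these genes can therefore come from unspliced RNA, and the counts do not tell exon from intron reads.

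Per length, Prkcb was the most abundant of the family in every library and Prkcq the least. Levels between genes were compared as CPM per kb of the span that is not shared with other genes. Prkcb averaged 4.26 CPM per kb over the 6 libraries (range 3.31 to 4.76), Prkcz 2.55 (2.31 to 2.90) and Prkce 1.87 (1.51 to 2.16). Prkch followed with 1.22 CPM per kb (1.03 to 1.43), Prkca with 1.02 (0.840 to 1.22), Prkcd with 0.437 (0.381 to 0.495) and Prkcq with 0.138 (0.120 to 0.152). The ranges of neighbours in this order did not overlap, except for Prkch and Prkca. Prkcb exceeded Prkcz by 1.67-fold in the mean and Prkcd exceeded Prkcq by 3.16-fold. The whole order spanned 30.8-fold from Prkcb to Prkcq, and the 7 genes together held between 0.266% of the scaled counts, in Gas5 A, and 0.358%, in GFP B.

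**Figure D1:**
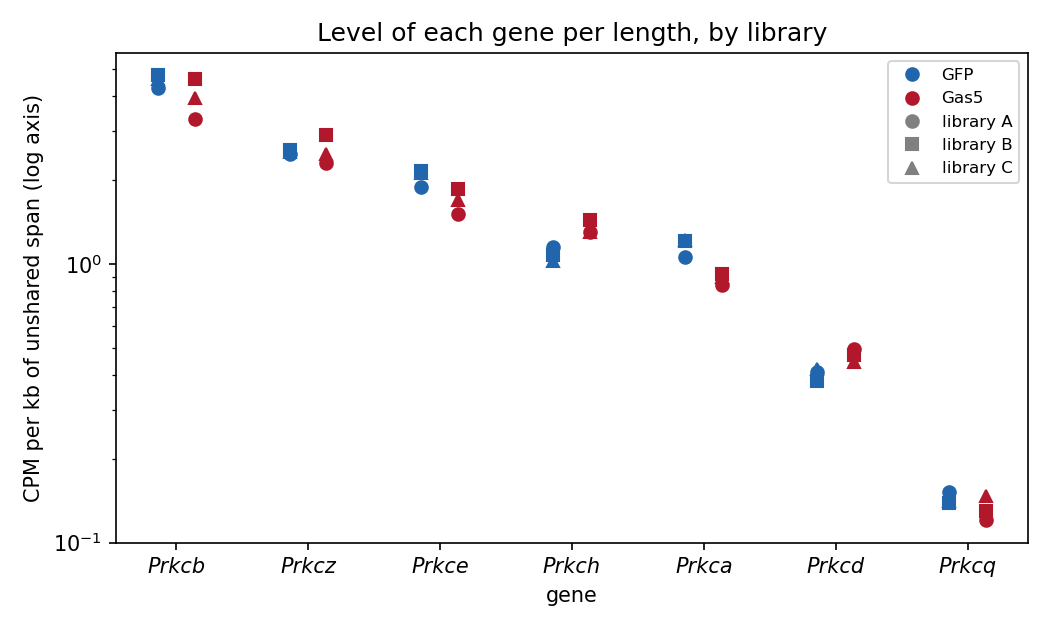
Level of the 7 protein kinase C genes in CPM per kb of unshared span, on a log axis, ordered by mean. Each point is 1 library, blue for GFP and red for Gas5, with the letter given by the symbol. Only the ranges of Prkch and Prkca overlap among neighbours, with Prkch above Prkca in all 3 Gas5 libraries.

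Between the groups, 2 of the 7 genes passed the test, in opposite directions. Prkca, a conventional isoform, fell 1.31-fold and Prkch, a calcium-independent isoform, rose 1.24-fold in the Gas5 libraries, at adjusted p of 0.0188 and 0.0271 in the quasi-likelihood test of edgeR. Over all tested genes 5.44% were called, 3.96% lower and 1.48% higher, and of the 2615 tested genes that span over 100 kb 12.8% were called, 10.2% lower and 2.64% higher. The members' median log2 fold change was -0.12, against 0.02 over all tested genes and -0.03 over those spanning over 100 kb. The groups did not overlap in 4 of the 7 genes, Prkca, Prkcd, Prkce and Prkch, as was so for 27.7% of all tested genes. In bulk tissue, fewer cells of a type and less RNA per cell cannot be told apart. Both calls were lost without GFP B and without GFP C, when 0 of the 7 genes were called, and the calls over all genes dropped from 955 to 115 and 107.

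**Figure D2:**
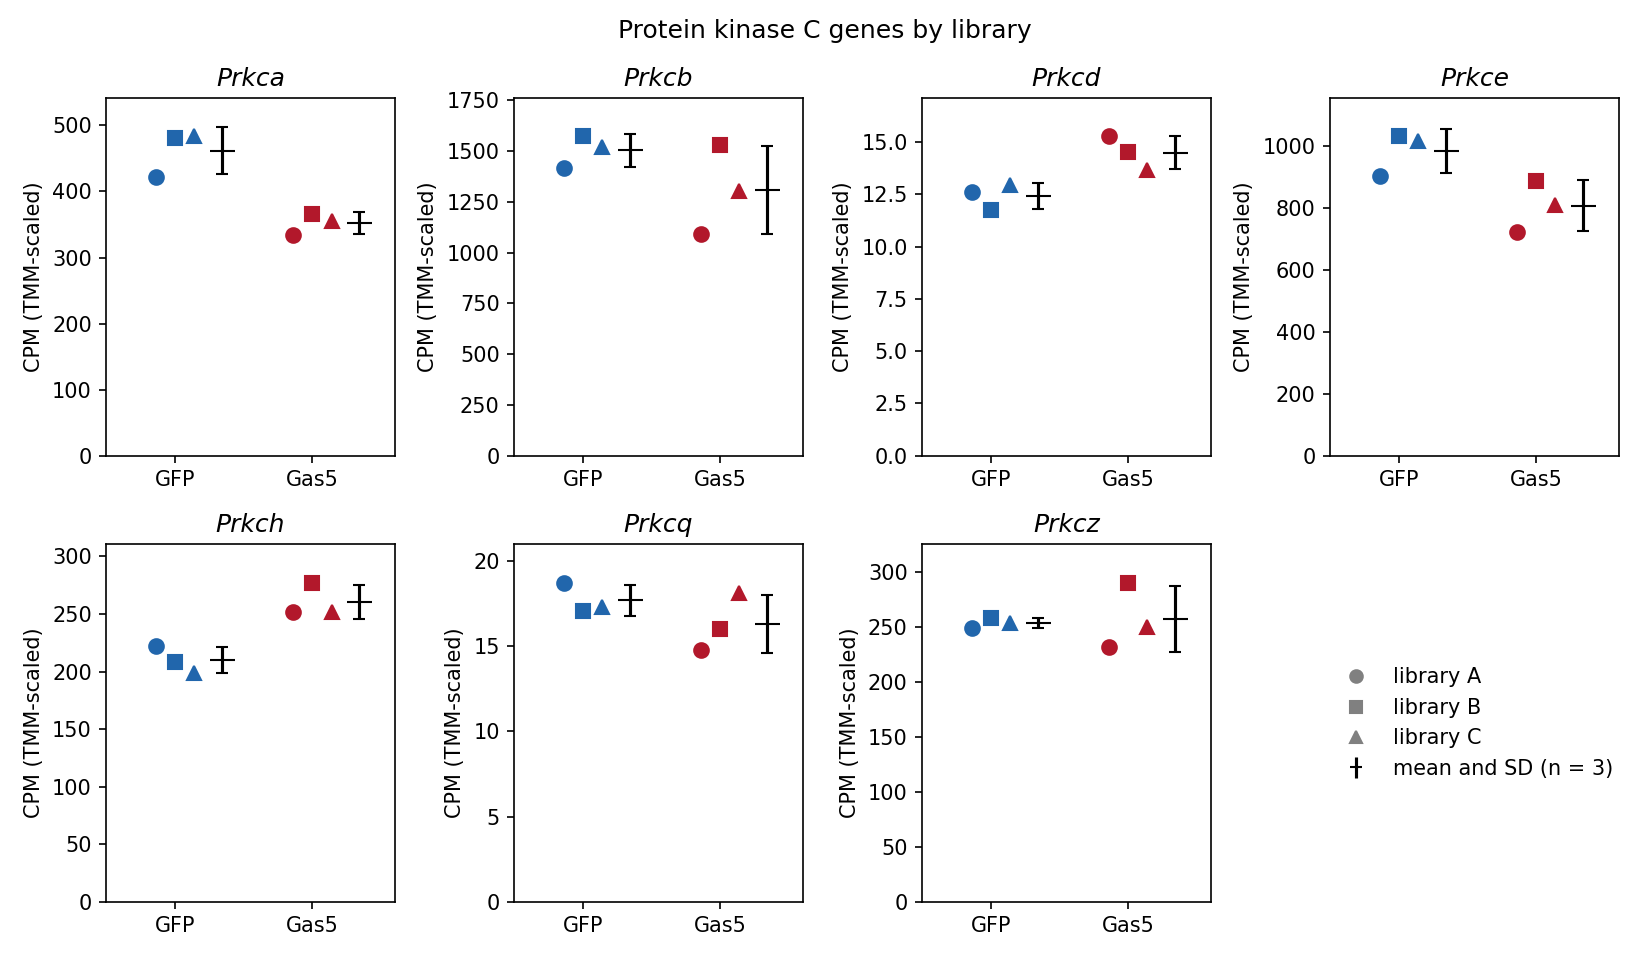
CPM of each protein kinase C gene in the 3 GFP libraries (blue) and the 3 Gas5 libraries (red), with the library letter as the symbol and the mean and SD (n = 3) in black. Prkca and Prkce sit lower, and Prkch and Prkcd higher, in every Gas5 library than in any GFP library, while Prkcb, Prkcq and Prkcz overlap.

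Of the conventional isoforms, Prkca encodes the alpha kinase, which is expressed in many tissues. Its level was 334, 366 and 356 CPM in the Gas5 libraries (A to C) against 421, 480 and 484 CPM in the GFP libraries (A to C). The highest Gas5 library lay below the lowest GFP library, GFP A, and the Gas5 libraries lay closer together than the GFP libraries, at 352 CPM ± 16.7 against 462 CPM ± 35.1 (SD, n = 3 each). The log2 fold change was -0.39 ± 0.0686 (standard error), with a 95% interval from -0.55 to -0.24 that is not adjusted for the number of genes. Without GFP B it was -0.36 with an adjusted p of 0.1002, and without GFP C it was -0.36 with an adjusted p of 0.103. Beside this fall, the cortical marker score averaged 2.51 and 4.19 in the Gas5 and GFP libraries. Within the GFP group GFP A had both the lowest score and the lowest Prkca, and within the Gas5 group Gas5 A had the lowest of both. The orders differed in the rest of the Gas5 group, with Prkca highest in Gas5 B (366 CPM) and the score highest in Gas5 C (2.86). The part of these cells in the fall was not tested.

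Prkcb encodes the beta kinase, which neurons of forebrain express strongly. Its level was 1093, 1529 and 1305 CPM in the Gas5 libraries (A to C) against 1415, 1573 and 1522 CPM in the GFP libraries (A to C). Gas5 A was the lowest of all, and Gas5 B lay above GFP A and GFP C, so the groups overlapped. The log2 fold change of -0.20 came with a standard error of 0.114 (adjusted p 0.3595) and an interval from -0.46 to 0.06, and with 1 library left out it ranged from -0.33 without Gas5 B (adjusted p 0.0830) to -0.09 without Gas5 A. The SD of the Gas5 libraries, at 218 CPM, exceeded that of the GFP libraries, at 80.5 CPM. Medium spiny neuron markers were also at their lowest in Gas5 A, where their mean log2 CPM was 8.07 against a range of 8.13 to 8.37 in the other libraries, and 0 of their 12 tested members were called. The part of these cells in the level of Prkcb was not tested.

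Of the calcium-independent isoforms, Prkch encodes the eta kinase. Its level was 252, 277 and 252 CPM in the Gas5 libraries (A to C) against 222, 209 and 199 CPM in the GFP libraries (A to C). The lowest Gas5 library exceeded the highest GFP library, GFP A, with means of 260 CPM ± 14.7 and 210 CPM ± 11.4 (SD, n = 3 each). The log2 fold change was 0.31 ± 0.0610 (standard error), with an interval from 0.17 to 0.45. Without GFP B it was 0.31 with an adjusted p of 0.127, and without GFP C it was 0.27 with an adjusted p of 0.135. Prkch is also known from T lymphocytes, and the T cell receptor genes Cd3d, Cd3e and Cd3g were at or near 0, with at most 6 counts in any library. Astrocyte markers had 1 of 9 tested members higher and 0 lower, 2 of 9 with a negative log2 fold change, 4 of 9 at an unadjusted p under 0.05 and a median of 0.17, and their mean log2 CPM was 7.16 in Gas5 against 7.01 in GFP libraries. Their summed levels, from 3524 to 4189 CPM in the Gas5 and 3897 to 4200 CPM in the GFP libraries, were mostly Slc1a2, a glutamate transporter gene and 1 of the 2 with a negative value (-0.21). Microglia and macrophage markers had 0 of 9 called and 0 of 9 with a negative log2 fold change. Of these 9, 6 had an unadjusted p under 0.05 in edgeR, and the median was 0.23. Their summed levels were 299 to 324 CPM in the Gas5 and 259 to 290 CPM in the GFP libraries. Gfap and P2ry12 on these lists were at 0, and both lie wholly within the overlap with other genes. The part of these cells in the rise was not tested.

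Prkce encodes the epsilon kinase, a neuronal isoform studied for its part in responses to alcohol and pain. Its level was 723, 887 and 809 CPM in the Gas5 libraries (A to C) against 902, 1031 and 1016 CPM in the GFP libraries (A to C). The groups did not overlap, but the highest Gas5 library and the lowest GFP library were close, and Prkce did not pass the threshold, with a log2 fold change of -0.29, a standard error of 0.08795 and an adjusted p of 0.104. The interval ran from -0.49 to -0.08. DESeq2 called it lower at an adjusted p of 0.0178, where it called 8.47% of its tested genes, as did edgeR without the expression filter at 0.0303, where 5.79% were called. Each of these fits called 3 members. The cortical marker scores beside it are those given for Prkca, and their part was not tested.

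Prkcd encodes the delta kinase, which is known as a marker of neurons in thalamus and in parts of the extended amygdala. Its level was 15.3, 14.5 and 13.7 CPM in the Gas5 libraries (A to C) against 12.6, 11.7 and 12.9 CPM in the GFP libraries (A to C), from between 411 and 702 counts, for which counting alone gives an error of up to 4.93%. The Gas5 libraries were all above the GFP libraries, with a log2 fold change of 0.22, a standard error of 0.0712 and an interval from 0.06 to 0.38, but the adjusted p of 0.115 missed the threshold. Thalamic markers had 1 of 10 tested members lower and 0 higher, 6 of 10 with a negative log2 fold change and a median of -0.05. Their summed levels, from 1174 to 1346 CPM in the Gas5 and 1424 to 1661 CPM in the GFP libraries, were mostly Rora, at 1002 to 1194 CPM and 1248 to 1496 CPM. The thalamic list also held differences in both directions, with 5 of 10 at an unadjusted p under 0.05 in edgeR. Slc17a6, the member called lower, had a log2 fold change of -1.54, and Ramp3 had 0.72. Septal and stria terminalis markers had 1 of 10 lower and 0 higher, at 174 to 179 CPM against 174 to 185 CPM. These sums hid differences in both directions, with 5 of 10 negative and 4 of 10 at an unadjusted p under 0.05 in edgeR. Trpc4 and Zic1 had log2 fold changes of -0.38 and -0.37, and Lhx8 and Dlk1 0.75 and 0.97. The part of thalamic, septal or stria terminalis cells in the level of Prkcd was not tested.

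Prkcq encodes the theta kinase, best known from T lymphocytes and muscle. Its level was 14.8, 16.0 and 18.1 CPM in the Gas5 libraries (A to C) against 18.7, 17.0 and 17.3 CPM in the GFP libraries (A to C). The groups overlapped, since Gas5 C lay above GFP B and GFP C. The log2 fold change was -0.12 ± 0.0840 (standard error), with an adjusted p of 0.457 and an interval from -0.31 to 0.07, and it ranged from -0.21 without Gas5 C to -0.06 without Gas5 A. Oligodendrocyte markers had 1 of 10 tested members lower, 10 of 10 with a negative log2 fold change and summed levels from 1682 to 2110 CPM in the Gas5 and 2157 to 2335 CPM in the GFP libraries, and their part in the level of Prkcq was not tested. Prkcz, the atypical isoform, stood at 232, 291 and 250 CPM in the Gas5 libraries (A to C) against 250, 259 and 254 CPM in the GFP libraries (A to C). The GFP libraries lay within the range of the Gas5 libraries, of which Gas5 B was the highest and Gas5 A the lowest. The log2 fold change of Prkcz was 0.02 ± 0.0791 (standard error), at an adjusted p of 0.919. Its interval ran from -0.16 to 0.20, and without Gas5 B the difference was -0.08.

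**Figure D3:**
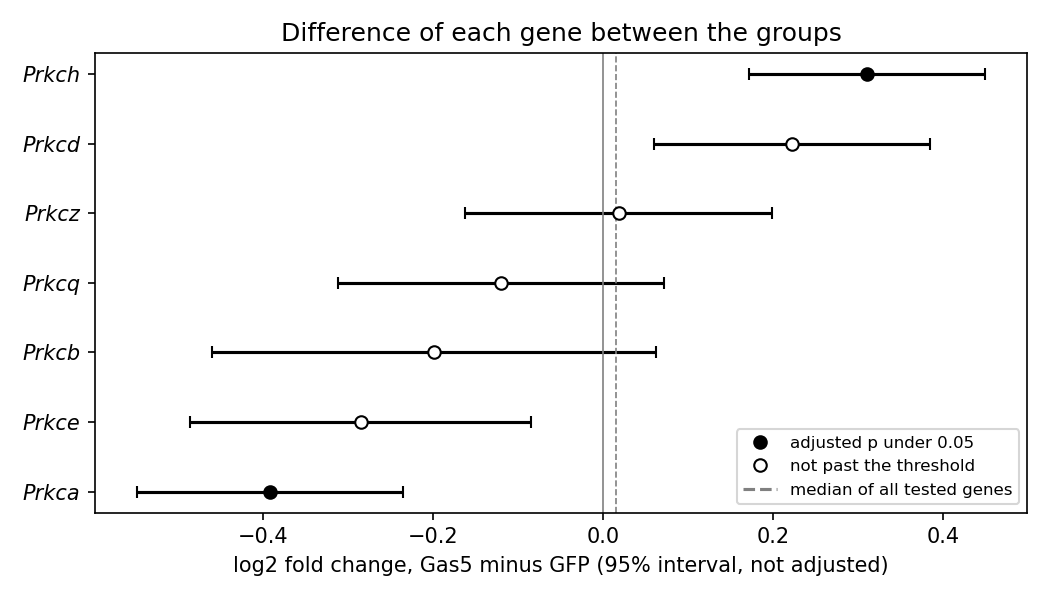
Log2 fold change of each protein kinase C gene, Gas5 minus GFP, with its 95% interval, not adjusted for the number of genes. Filled points passed an adjusted p of 0.05. The dashed line is the median of all tested genes, at 0.02. Prkca at -0.39 and Prkch at 0.31 are the filled points at the ends of the order.

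Prkch and Prkca changed places in the order of levels. The pair was chosen after these values were seen, and a ratio within a library does not depend on the scaling between libraries. Per kb, the ratio of Prkch to Prkca was 1.55, 1.55 and 1.45 in the Gas5 libraries (A to C) against 1.08, 0.891 and 0.845 in the GFP libraries (A to C). Prkch was thus the more abundant of the pair in all 3 Gas5 libraries and in GFP A. As a geometric mean the ratio was 1.63-fold higher in the Gas5 group. Since the groups overlap in neither gene and the genes differ in opposite directions, a ratio without overlap follows from those values and adds no support to them. A ratio shows an unequal change of the pair and not which gene moved.

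The summed level of the family did not separate the groups. The 7 genes together stood at 2663, 3382 and 3004 CPM in the Gas5 libraries (A to C) against 3241, 3580 and 3505 CPM in the GFP libraries (A to C), with Gas5 B above GFP A. The difference of the mean log2 sums was -0.20, and an exact permutation test, 2-sided, gave p = 0.2, where 3 against 3 libraries allow no p under 0.1. The conventional pair summed to 1661 CPM ± 234 and 1965 CPM ± 114 and the 4 calcium-independent genes to 1098 CPM ± 95.4 and 1223 CPM ± 59.8 in the Gas5 and GFP groups (SD, n = 3 each), each with an exact permutation p of 0.2. Prkcb made up 43.2% and 43.7% of the family's CPM in the Gas5 and GFP groups, and Prkce 26.8% and 28.5%. The share of Prkch was 8.68% against 6.12% and that of Prkca 11.7% against 13.4%. Without Gas5 A the difference of the log2 sums was -0.11.

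The genes whose log2 CPM ran most like that of a member over the 6 libraries were sought by Pearson's r, which here includes the difference between the groups. For Prkca these were Pgm2l1, Sqle and Epha3, each with r = 0.997, and all 3 were themselves lower, with log2 fold changes of -0.47, -0.37 and -0.50. For Prkch they were Atg10, Dclk3 and Zc3h6 with r of 0.997, 0.997 and 0.997, of which Dclk3 was called higher with a log2 fold change of 0.30. Prkcb ran most like Abcc8, Dlgap3 and Dgki, a diacylglycerol kinase gene, with r between 0.996 and 0.997. Prkce ran most like Slc35f4 and Ap3b1, Prkcz like Ppp1r37, Ppfia4 and Dapk1, Prkcd like Ankrd26, Cyp4v3 and Mepce, and Prkcq like Mal, Mrpl55 and Dnaja2. Each member was compared with 12261 genes, and the values are given as a description of 6 libraries. Between members, Prkca and Prkce had r = 0.948 and Prkca and Prkch r = -0.90.

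Upstream of the kinases, phospholipase C genes and their G proteins had 1 of 15 tested members higher and 1 lower. The shares called over all tested genes were 1.48% higher and 3.96% lower. Plce1, a phospholipase C that Ras proteins also regulate, rose 1.48-fold, from 56.5 CPM ± 3.13 to 83.7 CPM ± 8.95 (SD, n = 3 each), with an adjusted p of 0.0106. Plch2, of the eta class of phospholipase C, fell 1.28-fold with an adjusted p of 0.0300. Plcb1, which G proteins of the Gq class activate, had a log2 fold change of -0.20 (adjusted p 0.230), and Gna11, which encodes such a G protein, -0.03 and 0.671. In the median, these 15 genes stood at 0.02 on the log2 scale, the same to this precision as that of all tested genes. Over this list the count was 4 with DESeq2 and without the expression filter, 1 without GFP A and 0 without GFP B or GFP C.

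Diacylglycerol kinases and lipases, which remove the lipid that activates the kinases, had 0 of 11 tested members called by edgeR or by DESeq2, with 1 at an unadjusted p under 0.05. That gene was Dgkz, the zeta diacylglycerol kinase, with a log2 fold change of -0.14 (adjusted p 0.188.) Dgkg had 0.14 and an adjusted p of 0.272, and Dgkb, a kinase abundant in striatum, -0.05 and 0.759. Of the 11, 10 had a negative log2 fold change, with a median of -0.05, where 45.8% of all tested genes were negative.

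The Rasgrp, Unc13 and chimaerin genes, families that include other proteins with a diacylglycerol-binding C1 domain, had 2 of 10 tested members higher and 2 lower. Not every member need have that domain. Over all tested genes 1.48% were called higher and 3.96% lower. Unc13b and Unc13a, which encode Munc13 proteins that prime synaptic vesicles, fell 1.39-fold (adjusted p 0.0100) and 1.30-fold (adjusted p 0.0381). Chn2, which encodes a chimaerin that inactivates Rac, rose 1.22-fold (adjusted p 0.0369), and other genes overlap 23.0% of its span. Unc13c, the other gene called and named after its value was seen, rose 1.26-fold (adjusted p 0.0398). Rasgrp1, an activator of Ras, had a log2 fold change of -0.18 (adjusted p 0.311.) The groups did not overlap in 9 of the 10 genes, beside 27.7% of all tested genes, and the list's median was -0.17. The count was 2 without Gas5 A, without Gas5 B or without Gas5 C and 1 without GFP B or GFP C. Beside these Munc13 genes the cortical marker score averaged 2.51 and 4.19 in the Gas5 and GFP libraries, and its part was not tested.

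Among kinases related to the family 0 of 9 tested genes were called by edgeR, against 2 in DESeq2, and 3 had an unadjusted p under 0.05. Prkd1, a protein kinase D that protein kinase C activates, had a log2 fold change of -0.39 (adjusted p 0.130). Prkci, the remaining atypical isoform, named after its value was seen, had -0.18 and an adjusted p of 0.135. Pdpk1, which encodes the kinase that phosphorylates the activation loop of protein kinase C, had 0.04 and an adjusted p of 0.706.

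Anchors and partners of the kinases had 0 of 13 tested members called by edgeR or by DESeq2, with 2 at an unadjusted p under 0.05 and a median of 0.04. Pick1, also on this list, was not tested, with at most 5 counts in any library. Other genes overlap 98.9% of its span. Rack1, the receptor for activated C kinase, had a log2 fold change of 0.14 (adjusted p 0.188), and Pard6a, a polarity protein that binds atypical isoforms, -0.32 and 0.110. Akap5, a postsynaptic anchor, had 0.12 and 0.310, and Sqstm1, a scaffold for atypical isoforms, -0.02 and 0.836. Of 11 tested substrates 1 fell and 0 rose, where 3.96% and 1.48% of all tested genes were called lower and higher. Nrgn, which encodes neurogranin, a calmodulin-binding substrate of forebrain neurons, fell 2.12-fold, from 123 CPM ± 17.1 to 58.3 CPM ± 12.8 (SD, n = 3 each), with an adjusted p of 0.0115. Its levels were 43.7, 67.6 and 63.5 CPM in the Gas5 libraries (A to C) against 104, 134 and 132 CPM in the GFP libraries (A to C). Cortical excitatory neurons are rich in neurogranin, and the cortical marker score ran in the same direction, at 2.51 against 4.19, and its part in the fall was not tested. Marcks, the classic substrate, had a log2 fold change of 0.10 (adjusted p 0.442). Without GFP B or without GFP C 0 substrates were called.

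**Figure D4:**
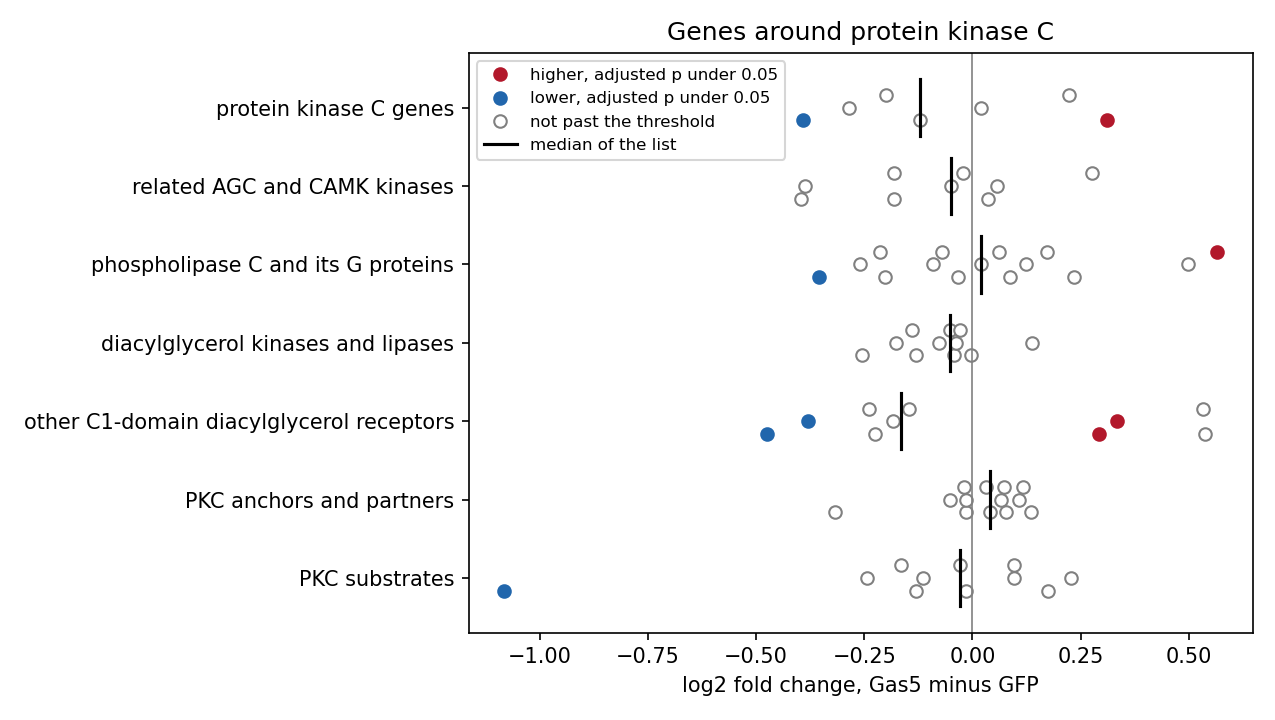
Log2 fold change, Gas5 minus GFP, of every tested gene in the 7 lists, with red for genes called higher, blue for genes called lower and open circles for the rest. The black bar is the median of a list. The calls are 2 of 7 protein kinase C genes and 2 of 15 phospholipase C and G protein genes. They are also 4 of 10 Rasgrp, Unc13 and chimaerin genes, labelled other C1-domain diacylglycerol receptors, and 1 of 11 substrates. Nrgn is the farthest from 0, at -1.08.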

How the data were processed

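Nucleus accumbens RNA, depleted of ribosomal RNA and made into strand-marking libraries per the labels' protocols, was deposited as raw counts per gene, in whole numbers with no normalization per the file headers and values. Tools in the submitters' processing notes are STAR 2.7.0 (an aligner), featureCounts 1.5.0-p3 (a read counter), Trim Galore 0.4.4, bcl2fastq 1.8.4 and edgeR 3.20.9, with build GRCm38.p6. For the strand setting, nothing is given in the sources used here. In the tables the length column equals the gene span in 54641 of 54658 rows, and of 1238 protein-coding genes over 500 bases that lie wholly within other genes 1 had counts. GENCODE M21, on the same build, matched 98.7% of rows by coordinates.

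Counts were fitted with edgeR 4.0.16 in R 4.3.3 over all 6 libraries, with the default filter, TMM scaling, a 2-sided quasi-likelihood F-test and Benjamini-Hochberg adjustment over 17563 genes, at a threshold of 0.05. Each standard error was obtained from the fold change and its F statistic. Logarithms of CPM use a pseudocount of 0.5. Alternatives were RLE and upper quartile scaling, other filters, DESeq2 1.42.0, limma-voom (limma 3.58.1), the replicate letter as a block and leaving out each library. The fits were tested on simulated data.

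The members, 6 pathway lists and 11 marker lists were chosen with earlier results of these data known. The named genes are the members, Gas5, the 2 of smallest p and the 2 of highest CPM per kb in each pathway list, and the 3 genes most like each member by Pearson's r whose log2 CPM averaged 1 or more. Of the genes this rule takes, 4 are not reported here. Replicate libraries were not repeats of each other, since the chi-square per degree of freedom of their counts was 4.82 to 23.3.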

Additional observations from a re-analysis of the deposited data

How the results depend on the processing

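Prkca and Prkch kept their direction under the 13 alternatives run, with log2 fold changes from -0.45 to -0.36 and from 0.26 to 0.35, and lost the call only without GFP B and without GFP C. Of 91 values of the 7 genes over the alternatives 83 kept their direction and their side of the threshold. Prkce passed it with DESeq2, without the expression filter and with the replicate block, at log2 fold changes from -0.29 to -0.28. Prkcz changed sign without Gas5 B and ranged from -0.0778 to 0.0831 when each library was left out, and its difference in log2 CPM, as the atypical class, ranged from -0.0784 to 0.0854, with -0.000452 without GFP A, and neither was called. The causes were not tested.

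Without the expression filter the calls were 1658 over all genes, 2 related kinases and 4 phospholipase C or G protein genes. With DESeq2 they were 1483, 2 and 4, with 2 substrates. Leaving out each library gave 107 to 847 calls over all genes, 0 to 2 members and 0 to 1 related kinases. It also gave 0 to 3 phospholipase C or G protein genes, 1 to 4 Rasgrp, Unc13 and chimaerin genes and 0 to 2 substrates. With the replicate block 1438 genes, 3 members and 3 related kinases were called. The letters were not treated as pairs, since libraries with the same letter had correlations of their deviations of 0.164, 0.179 and -0.09 for A, B and C, and C did not correlate best with its own letter. Levels of Prkcd and Prkcq rest on the fewest counts of the family, which limits their precision.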

Other observations

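The nearest tested protein-coding genes on either side of the 7 members, 14 in all, were looked up after the members' values were known. Of these 1 was called, where 5.44% of all tested genes were, so the count is near that share. The called gene was Cacng5, which encodes a subunit of the family that regulates glutamate receptors of the AMPA class. It lies 18.3 kb from Prkca on chromosome 11 and stood at 12.2, 15.4 and 16.2 CPM in the Gas5 libraries (A to C) against 21.5, 21.5 and 20.998 CPM in the GFP libraries (A to C). Its log2 fold change was -0.55 ± 0.0992 (standard error), at an adjusted p of 0.0205 in edgeR. Cep112, a centrosomal protein gene 81.3 kb to the other side of Prkca, had a log2 fold change of 0.05 (adjusted p 0.685.) Beside Prkch, Slc38a6, an amino acid transporter gene, had 0.19 and an adjusted p of 0.0514.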
